A study of Mus musculus with 5 samples.

Results

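Expression of cullin and F-box genes was compared between lung fibroblasts and cardiac fibroblasts from non-failing hearts of the mouse. The comparison used 2 of the 5 samples of the series and all 130 probe sets of 71 genes for which the authors deposited log2 expression levels by gene name. By family these were 8 cullins and, among F-box genes, 33 of the Fbxo, 13 of the Fbxw and 17 of the Fbxl type. A probe set is a group of short probes on the array that reads 1 stretch of a transcript. Both samples came from healthy male C57Bl/6N mice aged 6 months, and each was a pool of 5 mice. No transgene or treatment was recorded for either. The lung sample was labelled lung fibroblasts and the heart sample non-failing cardiac fibroblasts. The sources used here do not say how the fibroblasts were isolated or whether they were cultured. There was 1 sample a side, so no value has a replicate error, no difference between the samples was tested, and strain, sex and age do not separate the organs but preparation and array cannot be told apart from them. Of 28 markers listed for fibroblasts, cardiomyocytes, endothelial cells, macrophages, smooth muscle cells and lung epithelium, 0 were among the named genes. The other probe sets of the arrays were not used here, so the cell type labels were not checked.

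Cullins are the scaffolds of the Cullin-RING ubiquitin ligases (CRLs). They hold together the catalytic RING subunit and a substrate receptor, which decides what protein is ubiquitinated. Cul1 carries the F-box proteins through Skp1, and this SCF ligase takes its specificity from the F-box protein bound. F-box proteins are named after the domain next to the F-box: WD40 repeats in Fbxw, leucine-rich repeats in Fbxl, and other or no recognised domains in Fbxo. Fibroblasts of every organ produce collagen and other matrix, and they keep transcriptional differences that reflect the organ they come from.

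The 2 arrays differed in the spread of their levels. In lung fibroblasts the 130 probe sets ran from 1.76 to 11.60 on the log2 scale, with a median of 6.27 and a standard deviation (SD) of 2.12. In non-failing cardiac fibroblasts they ran from 4.82 to 10.69, with a median of 6.67 and an SD of 1.11. The upper quartiles lay close together, at 7.54 and 7.76, whereas the lower quartiles were 4.76 in lung and 5.97 in heart. Below 4.82, the lowest level in cardiac fibroblasts, there were 34 probe sets in lung fibroblasts. Every one of these was at least 2-fold lower in lung, and 24 more 2-fold lower probe sets lay at or above that level. The scaling of the arrays is not described in the sources, and the part of the scale in these differences was not tested.

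**Figure D1:**
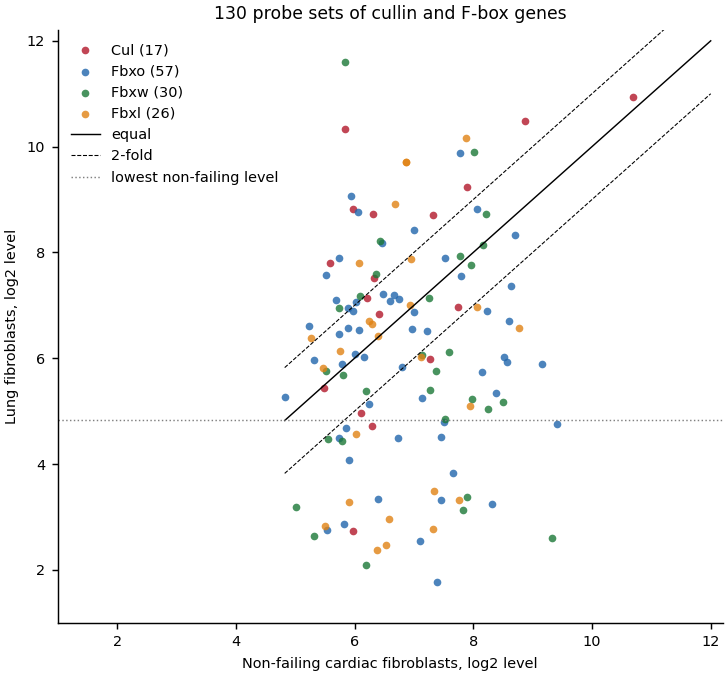
Levels of the 130 probe sets in non-failing cardiac fibroblasts (x axis, log2) and lung fibroblasts (y axis, log2), coloured by gene family. The solid line marks equal levels, dashed lines a 2-fold difference, and the dotted line the lowest cardiac level of 4.82, under which 34 lung values lie.

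Over the probe sets, 58 were higher and 72 lower in lung fibroblasts. A difference of at least 2-fold was found for 31 probe sets that were higher in lung, which is 23.8 percent of all, and for 58 that were lower, which is 44.6 percent. Another 41 differed by less than 2-fold. The median difference was -0.22, with quartiles of -2.60 and 0.92. Differences of at least 8-fold were found for 3 higher and 22 lower probe sets. The 2 samples ranked the probe sets with little likeness: Spearman's rho was 0.11 and Pearson's r 0.13 over the 130 probe sets, which share the 2 arrays and are not replicates. Between lung and failing cardiac fibroblasts, a pool from beta1-adrenergic transgenic mice with heart failure, rho was -0.0020. The likeness of the 2 cardiac fibroblast samples to each other was not computed, nor was that of lung fibroblasts to cardiomyocytes. Whether the low likeness goes with the organ or with the array was therefore not tested. Where both lung and non-failing cardiac fibroblasts reached 6.0, which held for 55 probe sets, rho was 0.21. There 19 were at least 2-fold higher and 9 lower in lung. This balance is tied to the selection, which removes the wide low end of the lung levels. It left out 39 probe sets that reached 6.0 in heart alone and 17 that did so in lung alone.

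Probe sets were averaged to give the level of each gene. A gene was counted as different where lung and cardiac fibroblasts differed by at least 2-fold and at least 1 of them reached 6.0, a level taken as relevant expression under the thresholds used for these arrays. By this rule 10 of 71 genes (14.1 percent) were higher in lung fibroblasts, 30 (42.3 percent) were lower, and 31 were neither. The median difference over all genes was -1.08 on the log2 scale. Levels of at least 6.0 were found in both samples for 27 genes, in lung alone for 8, in heart alone for 26, and in neither for 10. In a pool of cells, a lower share of expressing cells and less RNA per cell cannot be told apart.

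Among the substrate receptors, the largest differences towards lung were those of Fbxl14 and Fbxl5. Fbxl14, a receptor for Snail-family transcription factors of the epithelial-mesenchymal transition (EMT), stood at 9.70 in lung and 6.86 in cardiac fibroblasts, which is 7.18-fold higher in lung. Fbxl5, which senses iron and targets the iron regulatory protein IRP2, stood at 9.71 in lung and 6.87 in heart, a 7.15-fold difference. Each was read by 1 probe set. In failing cardiac fibroblasts the levels were 6.93 for Fbxl14 and 7.53 for Fbxl5, so both heart fibroblast samples lay below lung. Left ventricle tissue read both as high as lung fibroblasts did, at 9.84 and 9.80.

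Other receptors higher in lung were Fbxo34, Fbxo11, Fbxl4, Fbxo38 and Fbxw11. Fbxo34 stood at 7.90 in lung and 5.74 in heart, but at 8.24 in failing cardiac fibroblasts. Fbxo11, a receptor for BCL6 and Snail, stood at 8.18 in lung and 6.46 in heart, a 3.29-fold difference, with 6.02 in the failing sample. Fbxl4, a mitochondrial protein whose loss depletes mitochondrial DNA, stood at 6.39 and 5.27. Fbxo38, a ligase receptor for PD-1 in T cells, stood at 6.95 and 5.88, and at 8.25 in the failing sample. All of these were single probe sets, and for Fbxo34 and Fbxo38 the failing cardiac fibroblasts were above lung.

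Fbxw11, or beta-TrCP2, a receptor for beta-catenin and the NF-kappaB inhibitor, was read by 5 probe sets with a mean of 7.87 in lung and 6.81 in heart. A pair of probe sets was higher in lung by 1.79 and 1.88, and another by 5.75, from 5.84 in heart to 11.60 in lung. The remaining 2 differed by -1.34 and -2.76. The large value came from the probe set of the _x_at kind, in which some probes match other sequences, and without it the gene's difference was -0.11.

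**Figure D2:**
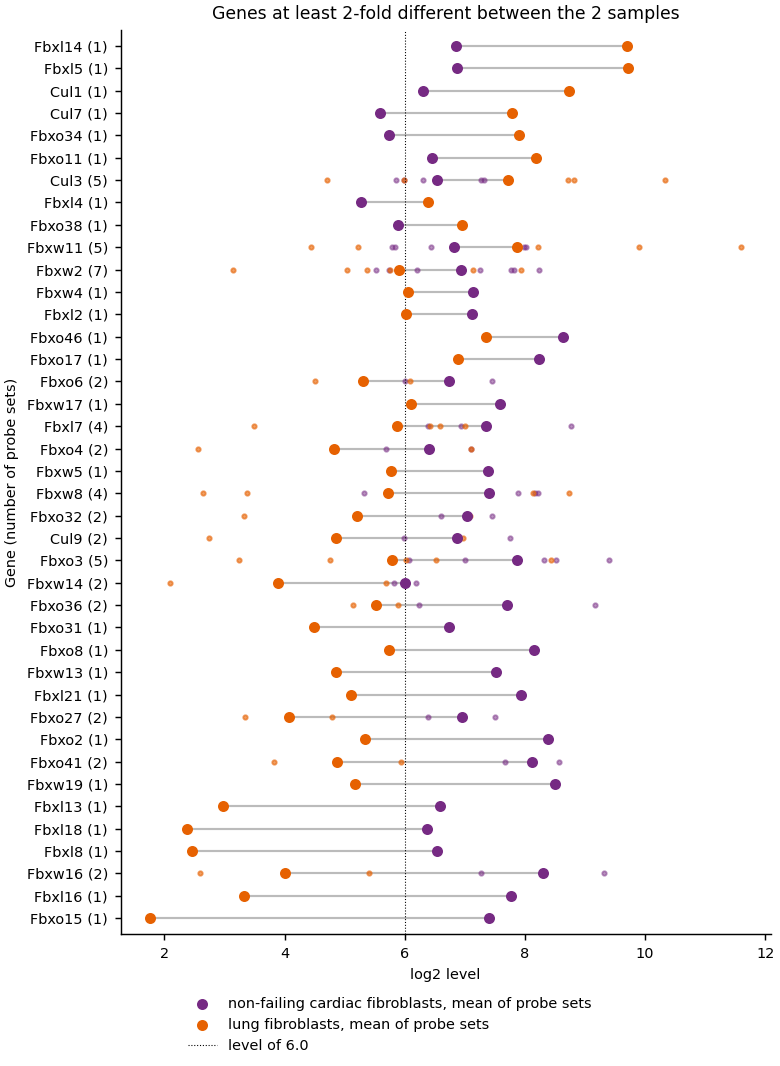
Levels (x axis, log2) of the 40 genes at least 2-fold different between the samples with 6.0 or more in 1 of them, ordered by difference. Large points are means of the probe sets in lung and non-failing cardiac fibroblasts, small points single probe sets, and the number of probe sets stands behind each gene; the 10 genes higher in lung lie above the 30 lower ones.

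The cullin scaffolds as a group lay more towards lung than the other genes. Of the 8, 3 were higher, against 14.1 percent of all genes, 1 was lower, against 42.3 percent, and 4 were neither, and their median difference was 0.73 against -1.08 over all 71 genes. Cul1, the scaffold of the SCF ligases, stood at 8.73 in lung and 6.31 in heart by its 1 probe set, a 5.36-fold difference. Cul7, which pairs with Fbxw8 and is mutated in 3-M growth syndrome, stood at 7.79 and 5.59, a 4.59-fold difference, also by 1 probe set. Failing cardiac fibroblasts read 5.63 for Cul1 and 4.93 for Cul7, so that both scaffolds were lower in both heart fibroblast samples than in lung. Cardiomyocytes read Cul1 at 9.38, above lung, and Cul7 at 6.66. Left ventricle tissue read Cul1 at 0.00 and Cul7 at 7.47, so the Cul1 probe set gave very different readings within the heart.

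Cul3, the scaffold of the BTB-domain receptors such as Keap1, had a mean of 7.71 in lung and 6.54 in heart over 5 probe sets. The differences were 4.48, 2.84, 1.39, -1.28 and -1.59, so 3 probe sets put the gene higher in lung and 2 put it lower. The highest, 10.33 in lung and 5.85 in heart, and the lowest, 4.71 and 6.30, thus give opposite answers for the same transcript name. Cul9, a cullin that binds p53, was the 1 scaffold lower in lung, with 2.74 against 5.98 by one probe set and 6.96 against 7.74 by the other. Its mean difference was -2.01 with both probe sets lower.

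The remaining scaffolds differed by less than 2-fold. Cul4a, which uses Ddb1 as its adaptor, had the highest cardiac level of any probe set at 10.69 and stood at 10.93 in lung. Its level in failing cardiac fibroblasts was 5.49. Cul4b, the X-linked relative of Cul4a, was higher in lung with both probe sets, by 1.33 and 0.42, and a mean difference of 0.88. Cul5, the scaffold of SOCS-box ligases, differed by 1.61, 0.92 and -1.14, and Cul2, which carries the von Hippel-Lindau protein, by 1.19 and -0.04. Of the 17 cullin probe sets, 11 were higher in lung and 6 lower, against 58 and 72 of all 130. Cul3 alone gave 5 of the 17.

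Fbxo15, a gene marking embryonic stem cells, had the largest difference of any gene, at 1.76 in lung and 7.39 in heart. The level in failing cardiac fibroblasts was 6.19. Fbxl16 stood at 3.33 in lung and 7.76 in heart, with 7.70 in the failing sample. Fbxl8 stood at 2.46 and 6.53, Fbxl18, a receptor for the F-box protein Fbxl7, at 2.37 and 6.37, and Fbxl13 at 2.97 and 6.58. Fbxl21, a receptor for the cryptochromes of the circadian clock, stood at 5.10 and 7.94. These genes were read by 1 probe set each. That of Fbxl13 carries 2 gene symbols, so its reading cannot be assigned to Fbxl13 alone. The failing sample read Fbxl8, Fbxl18 and Fbxl13 at 7.87, 6.43 and 8.03, all above lung. Its lowest level over the 130 probe sets was 4.76. Any failing reading therefore had to lie above the lung levels of Fbxo15, Fbxl16, Fbxl8, Fbxl18 and Fbxl13.

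A gene with 1 probe set rests on 1 reading, and the lung levels of Fbxo15, Fbxl16, Fbxl8, Fbxl18 and Fbxl13 all lay under the lowest cardiac level. When lung levels were raised to that floor of 4.82, Fbxo15 still differed by -2.57, Fbxl16 by -2.94, Fbxl8 by -1.71, Fbxl18 by -1.55 and Fbxl13 by -1.75. Of the 30 lower genes, 25 remained lower by the rule under this floor. The 5 that did not were Fbxw14, Cul9, Fbxw8, Fbxo4 and Fbxw2.

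The 5 measured genes of the rodent-expanded Fbxw family were all lower in lung, against 42.3 percent of all genes, with a median difference of -2.66. These genes form a family of near copies in mouse, so that probes may read more than 1 of them. Fbxw16 had 9.32 in heart and 2.60 in lung by one probe set, the largest difference of the 130, and 7.27 and 5.41 by the other. Fbxw19 stood at 5.17 in lung and 8.50 in heart, Fbxw13 at 4.85 and 7.52, and Fbxw17 at 6.11 and 7.59. The probe sets of Fbxw14 differed by -4.09 and -0.13, and its cardiac mean of 6.00 sat just on the level required. The first of these is of the _x_at kind. The other read 5.69 in lung and 5.81 in heart and would not pass the rule alone. All 7 probe sets of these genes were lower in lung, against 72 of 130 over the sheets.

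Receptors with an F-box-associated (FBA) domain, which binds N-glycans in several members, had 4 of 5 measured genes lower, against 42.3 percent of all genes, 0 higher, against 14.1 percent, and Fbxo44 neither. Their median difference was -1.43, against -1.08 over all genes. Fbxo2, which recognises high-mannose glycoproteins, stood at 5.34 in lung and 8.38 in heart, and at 6.17 in failing cardiac fibroblasts. Fbxo27, a receptor for glycoproteins of damaged lysosomes, was lower in lung by both of its probe sets, with differences of -2.71 and -3.06. Fbxo17 stood at 6.89 and 8.24. Fbxo6 differed by 0.09 in one probe set and by -2.95 in the other, which is of the _x_at kind, and Fbxo44 by 0.69 and -2.97.

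Fbxo41, known from neurons, was lower in lung with both probe sets, at 5.93 against 8.56 and 3.83 against 7.66. Fbxo36 was lower with both probe sets too, at 5.14 against 6.24 and 5.89 against 9.16. Together with Fbxo15, Fbxo24 and Fbxo43, Fbxo36 was listed among germline and stem cell genes. Of these 4 measured genes, 2 were lower by the rule, a share near the 42.3 percent over all genes. All 5 of their probe sets were lower in lung, against 72 of 130 over the sheets, and that of Fbxo24 by less than 2-fold. Fbxo43, or Emi2, which holds the anaphase-promoting complex inactive in the egg, stood at 2.76 and 5.53, under 6.0 in both samples.

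Fbxo3, Fbxl2, Fbxl7 and Fbxl19 form an axis in inflammation, in which Fbxo3 is a receptor for Fbxl2. Lower in lung were 3 of the 4, against 42.3 percent of all genes, and 0 were higher. Fbxo3 was read by 5 probe sets with differences of 1.42, 0.45, -2.50, -4.65 and -5.08, from 8.43 against 7.00 at one end to 3.24 against 8.32 at the other. Fbxl7 had 4 probe sets, with differences of 0.02, 0.08, -2.19 and -3.85. Fbxl2 stood at 6.03 and 7.11 and Fbxl19 at 6.14 and 5.76. For the genes with many probe sets the mean therefore averages readings that disagree.

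The receptors for EMT transcription factors had 3 of 6 measured genes higher, namely Fbxl5, Fbxl14 and Fbxo11, against 14.1 percent of all genes, and a median difference of 1.11. Fbxo31, which also targets cyclin D1, was lower, at 4.50 against 6.74. Fbxo45, which works with the ligase Mycbp2, differed by -1.89 and 0.77 in its probe sets. Fbxw7, the receptor for cyclin E, Myc and Notch, differed by -0.20 and 1.22. These F-box proteins have many other substrates, and a list of 6 genes that were mostly read by 1 probe set gives a description only.

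Cell cycle receptors had 0 of 7 measured genes higher, against 14.1 percent of all genes, and 2 lower, against 42.3 percent. Fbxo5, or Emi1, an inhibitor of the anaphase-promoting complex in dividing cells, stood at 6.89 in lung and 5.97 in heart, and at 7.96 in failing cardiac fibroblasts. Fbxo4, a receptor for cyclin D1, was read at 7.09 against 5.68 by one probe set and at 2.55 against 7.11 by the other. Fbxl12 stood at 5.81 and 5.47. The members of this list lay on both sides of 0.

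Of the 4 measured muscle receptors, 0 were higher and 1, Fbxo32, was lower, with 14.1 and 42.3 percent of all genes as the background. Fbxo32, or Atrogin-1, a receptor of muscle atrophy, had a mean difference of -1.82 with an SD of 3.27 between its 2 probe sets, of which one was higher in lung. Fbxo30, also linked to muscle atrophy, differed by 1.38, 0.54, 0.37 and -0.36 over 4 probe sets. Fbxo25, a receptor for cardiac transcription factors, stood at 4.68 in lung and 5.85 in heart and so under 6.0 in both. Fbxo21 was higher with both probe sets, by 0.72 and 0.11, with a mean under 2-fold.

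WD40 receptors that mouse shares with human had 1 of 8 higher, Fbxw11, and 4 lower, shares near the 14.1 and 42.3 percent over all genes. Fbxw5, a receptor for the centriole protein SAS-6, stood at 5.77 in lung and 7.38 in heart, and Fbxw4 at 6.05 and 7.13. Fbxw8, the F-box partner of Cul7, was read by 4 probe sets that differed by 0.52, -0.03, -2.68 and -4.52. Taking the highest probe set in each sample turned its mean difference of -1.68 to 0.52. Fbxw2, with 7 probe sets the most densely read gene, was higher in lung in 3 and lower in 4, from 1.22 down to -4.68, and its mean difference of -1.03 just passed 2-fold. Fbxw9 differed by 1.09 and -1.07, so that its mean was level.

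The 11 genes of these sheets whose depletion changed cardiomyocyte size in the study's screen had 2 higher, 4 lower and 5 neither in lung, with a median difference of -0.56. These shares were near the 14.1 percent higher and 42.3 percent lower over all genes. The higher ones were Cul1 and Fbxl14 and the lower ones Fbxo6, Fbxo32, Fbxw4 and Fbxw5. The screening library was selected on the cardiomyocyte array of this series. Fbxo9, a receptor in mTOR signalling, was read at 9.07 against 5.95 by one probe set and at 5.25 against 7.14 by the other. Fbxo33, a receptor for YB-1, differed by 1.05 and -0.13.

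Lower genes not in these groups were Fbxo8, at 5.74 in lung and 8.15 in heart, and Fbxo46, at 7.36 and 8.63. Fbxo8 was read only by 1 probe set of the _s_at kind, which is shared between genes. Fbxl15, Fbxl6, Fbxw10 and Fbxo16 were over 2-fold lower but under 6.0 in both samples. With Fbxo43, Fbxo25 and Fbxo44 they made up the 7 genes past 2-fold that the level rule left out. Less than 2-fold apart were Fbxo22, whose probe sets differed by 2.71, 2.10 and -1.83, Fbxo28, by 2.07, 0.66 and -0.25, and Fbxo42, by 0.37, -0.14 and -0.70. Fbxo10, a receptor for BCL2, stood at 7.21 and 6.48, Fbxo7, linked to mitophagy, at 5.27 and 4.82, Fbxo18 at 6.55 and 6.97, and Fbxo24 at 5.84 and 6.79. Fbxl17, which removes faulty BTB dimers, differed by 0.45 and -1.10.

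Fbxl20 differed by 2.23, 0.92, 0.34 and -4.56 over 4 probe sets, and its lowest value is uncertain. The authors also deposited a whole-array table of linear intensities, and the remaining probe sets of the sheets had the same values there in both samples, within 0.02 on the log2 scale. For this probe set of Fbxl20 the sheet gave 2.77 in lung and 7.33 in heart, whereas the table gave 5.58 and 5.56, a level reading. Without that probe set the mean difference of Fbxl20 passed 2-fold, and 11 genes were higher in lung.

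**Figure D3:**
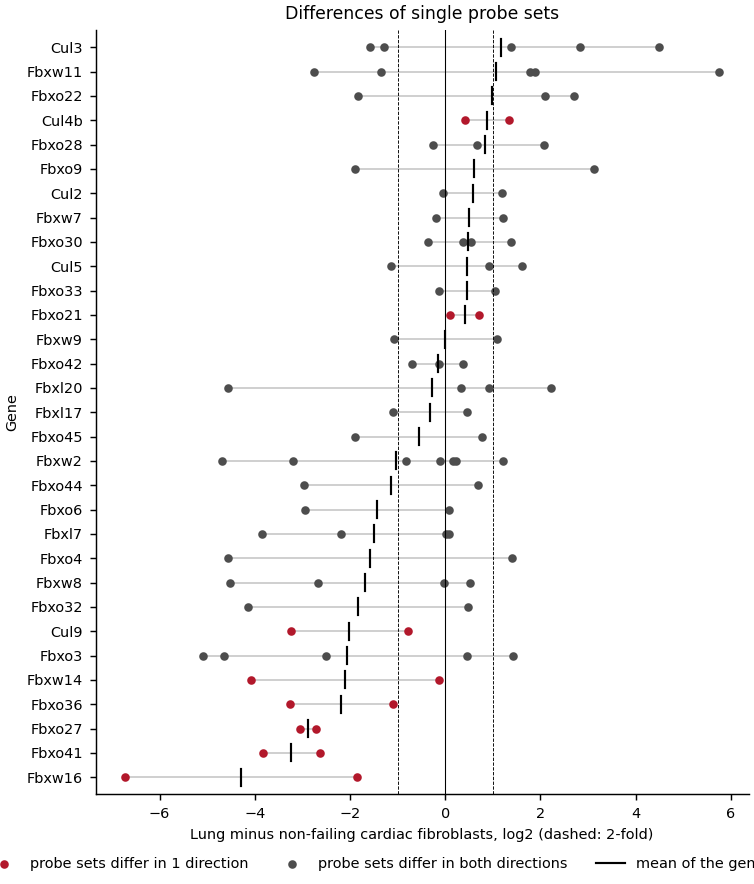
Differences between lung and non-failing cardiac fibroblasts (x axis, log2) for single probe sets (points) of 31 of the 32 genes with several, with the gene mean as a black bar and dashed lines at 2-fold. Red genes have all probe sets in 1 direction; the 4 with every probe set at least 2-fold lower are Fbxw16, Fbxo41, Fbxo27 and Fbxo36.

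Agreement between probe sets of 1 gene was limited. Of the 32 genes with several probe sets, 2 had all of them higher in lung, 6 had all of them lower, and 24 had them in both directions. With equal medians 7 had all of them higher and 5 all lower, and with quantile normalization 5 and 5. In 11 genes one probe set was at least 2-fold higher and another at least 2-fold lower. The SD of the differences within a gene had a median of 1.89, above the median size of 1.01 of these genes' mean differences regardless of sign. This SD is a spread within the 2 arrays and not a replicate error. It was larger among lung levels, with a median SD of 1.81, than among cardiac levels, with 1.02.

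Of the 15 genes with several probe sets that passed the rule, 6 had all probe sets in 1 direction, and each of these was lower in lung: Fbxw16, Fbxo41, Fbxo27, Fbxo36, Fbxw14 and Cul9. The first 4 had every probe set at least 2-fold lower. Fbxw14 passed the rule only through its probe set of the _x_at kind. Cul3 and Fbxw11, the 2 higher genes with several probe sets, had readings in both directions. The other 8 higher genes and 17 lower genes were read by 1 probe set each. The median difference was -1.26 over the 39 genes with 1 probe set and -0.29 over the 32 with several.

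The kind of probe set moved with the difference. Of 104 plain _at probe sets, 22 were at least 2-fold higher and 48 lower in lung, with a median difference of -0.56. Of 15 of the _a_at kind, which read several transcripts of the same gene, 6 were higher and 6 lower, and their median was 0.34. The 7 of the _s_at kind, shared between genes, had 2 higher and 2 lower, and the 4 of the _x_at kind 1 higher and 2 lower. The part of the kind of probe set in the result was not tested.

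**Figure D4:**
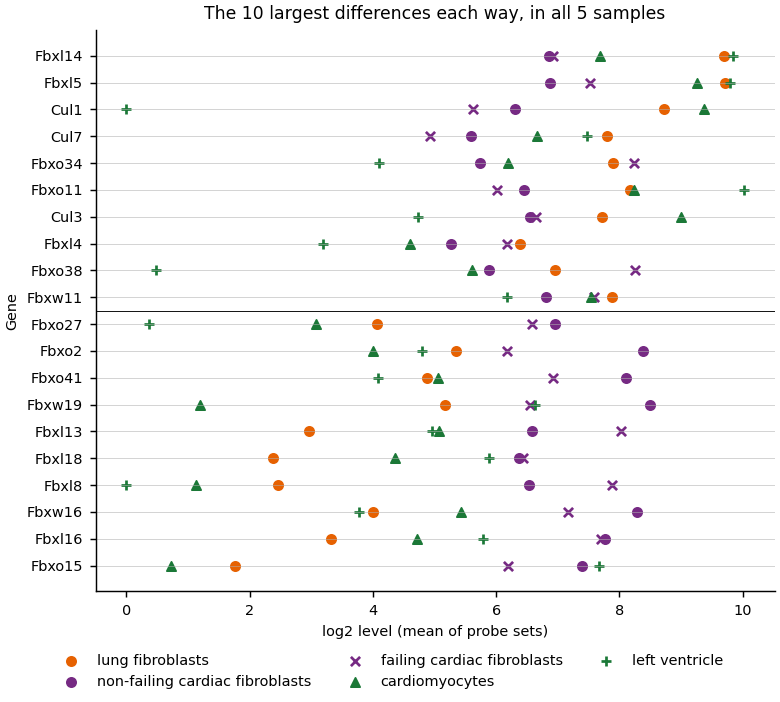
Levels (x axis, log2, mean of probe sets, 1 pool each) in all 5 samples for the 10 genes highest in lung relative to non-failing cardiac fibroblasts (upper rows) and the 10 lowest (lower rows). In the lower rows both cardiac fibroblast samples lie to the right of lung fibroblasts. For the non-failing sample this is by selection. For the failing sample, with no level under 4.76, it is by construction where lung lies under that level. In the upper rows the failing sample lies to the right of lung for Fbxo34 and Fbxo38.

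Promoter sequence was described for the 54 of 71 genes with an entry in the table of RefSeq promoters of mouse build GRCm38.p6. The 250 bases before the transcription start were searched for the dinucleotide CG, which reads the same on both strands and does not overlap itself. At least 1 CG was found in 92.1 percent of all windows of the table. The ratio of observed to expected CG had a median of 0.72 in the cullin and F-box genes and 0.38 over all 27025 genes of the table. It was 0.75 in the 8 higher genes with an entry, 0.63 in the 23 lower ones and 0.80 in the 23 that were neither, and ratios over 0.6 were found for 6, 13 and 16 of them. Fbxw14 and Fbxw16 had no CG in this window and Fbxw19 had 1.

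These windows are shown for the higher and the lower genes with the largest differences that had a single entry, with each CG in capitals. The lower pair does not span its group, in which the median was 13 CG and Fbxl7 had 25. Fbxl14, at chr6:119479418-119479667 on the plus strand, had 47 CG, and Cul7, at chr17:46650088-46650337 on the plus strand, had 5 although it was also higher in lung. Fbxl16, at chr17:25808211-25808460 on the plus strand, had 5, and Fbxw16, at chr9:109449141-109449390 on the minus strand, had 0. A count of CG is a description of these letters only.
Fbxl14: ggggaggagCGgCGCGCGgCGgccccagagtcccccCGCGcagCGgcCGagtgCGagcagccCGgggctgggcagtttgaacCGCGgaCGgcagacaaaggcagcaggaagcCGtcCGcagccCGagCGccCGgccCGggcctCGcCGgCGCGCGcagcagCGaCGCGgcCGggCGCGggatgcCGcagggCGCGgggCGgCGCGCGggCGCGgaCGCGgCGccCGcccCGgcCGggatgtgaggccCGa
Cul7: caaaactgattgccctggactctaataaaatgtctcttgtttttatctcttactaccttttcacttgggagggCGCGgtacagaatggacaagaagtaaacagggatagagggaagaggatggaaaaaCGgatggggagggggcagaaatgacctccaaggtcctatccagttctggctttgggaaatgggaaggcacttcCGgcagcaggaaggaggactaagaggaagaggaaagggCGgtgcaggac
Fbxl16: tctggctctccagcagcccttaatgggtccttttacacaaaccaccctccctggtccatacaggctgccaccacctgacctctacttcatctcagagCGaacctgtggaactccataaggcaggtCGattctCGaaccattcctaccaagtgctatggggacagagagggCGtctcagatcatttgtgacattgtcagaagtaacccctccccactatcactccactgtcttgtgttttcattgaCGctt
Fbxw16: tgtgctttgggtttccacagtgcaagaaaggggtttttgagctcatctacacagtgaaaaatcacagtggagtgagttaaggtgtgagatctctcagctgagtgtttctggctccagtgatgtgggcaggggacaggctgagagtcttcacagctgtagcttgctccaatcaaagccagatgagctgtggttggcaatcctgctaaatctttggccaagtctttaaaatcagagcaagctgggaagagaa

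The counts of higher and lower genes were computed again on other scales. Setting the medians of the 2 samples equal moved lung by 0.40 relative to heart and gave 17 higher and 24 lower genes. Quantile normalization, which gives both samples the same distribution, gave 21 higher and 21 lower genes and a median difference of -0.075. The share of higher genes among those past the rule was 25.0 percent on the deposited scale, 41.5 when medians were set equal and 50.0 after quantile normalization. Both scalings draw the counts towards an even split by construction. All 10 higher genes as deposited were higher under each of the 2 scalings. With equal medians this was fixed by construction, because every difference moved towards lung by 0.40. Of the 30 lower genes 24 remained with equal medians and 21 with quantile normalization.

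Fbxw14, Fbxo17, Fbxo46, Fbxl2, Fbxw4 and Fbxw2 were the lower genes that no longer passed with equal medians. The genes that passed as higher with equal medians and not as deposited were 7 in number, among them Cul4b, Fbxo5, Fbxo10, Fbxo9, Fbxo28 and Fbxo22. Of the rodent-expanded Fbxw genes Fbxw13, Fbxw16, Fbxw17 and Fbxw19 were lower under both scalings. Of the FBA-domain receptors, Fbxo2 and Fbxo27 were lower under both, Fbxo6 with equal medians alone and Fbxo17 with quantile normalization alone. The cullins had 4 of 8 higher under each scaling, with 1 lower under equal medians and 0 under quantile normalization. As the background for these groups, equal medians gave 17 higher and 24 lower of all 71 genes, and quantile normalization 21 and 21.

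**Figure D5:**
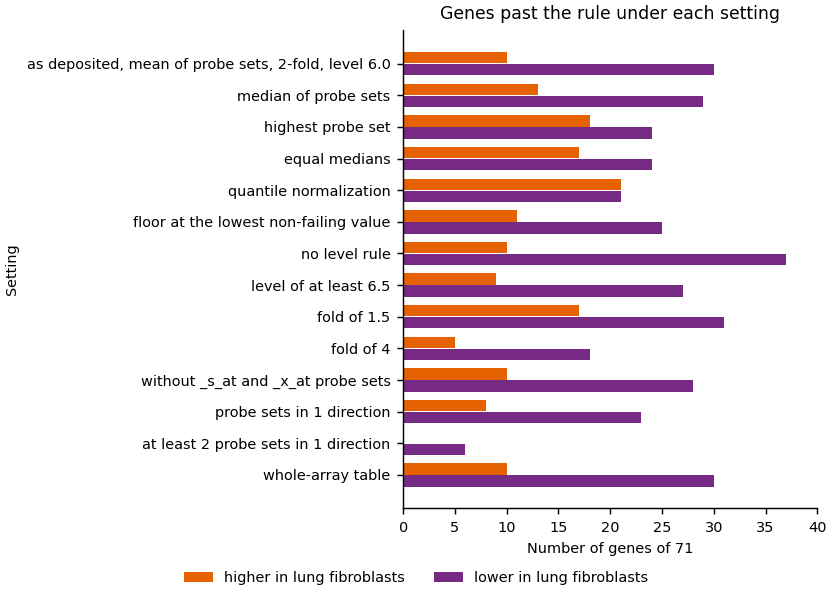
Number of genes (x axis, of 71) higher and lower in lung fibroblasts by the rule as deposited and under each alternative setting. As deposited 10 were higher and 30 lower; quantile normalization gave 21 and 21, and requiring at least 2 probe sets in 1 direction left 0 higher and 6 lower.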

How the data were processed

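Levels were taken from 2 deposited sheets, in which the authors give log2 expression per probe set for pools of 5 mice. The paper names the Affymetrix Mouse Expression Set 430. The labels describe whole-transcript labelling. Background correction, probe summary and any scaling of the arrays to each other were not stated in the sources, and the number of arrays, 1 a side, limits the precision. The whole-array table of linear intensity that the authors deposited, which matched the sheets within 0.02 on the log2 scale for all but 1 probe set, served as an alternative for the same probe sets; its other rows were not used here. The sheets also hold the authors' own differences between samples, which were not used. The first gene symbol of each probe set was used, where 4 of the 130 probe sets carried several. Of these first symbols, 71 of 71 matched the RefSeq gene table, 1 through an older symbol. The separate table of promoter sequences held 54 of them.

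Probe sets were averaged on the log2 scale for each gene. With 1 sample a side there was no test, and a difference was described by at least 2-fold with at least 6.0 in 1 sample. Named are all cullins, the 10 largest differences each way, genes with at least 3 probe sets or with all probe sets 2-fold in 1 direction, and list members; the rest are named to account for each gene. Members and lists were chosen with earlier results of these data known. The values of 1 gene are not reported here, although it is in the counts. Functions were tested on simulated data. Python 3.11.15, pandas 2.3.3, NumPy 2.4.6, SciPy 1.17.1 and matplotlib 3.10.9 were used.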

Additional observations from a re-analysis of the deposited data

How the results depend on the processing

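No paired analysis was possible because lung and heart were represented by 1 sample each, and leaving out a sample leaves no comparison. Against 10 genes higher and 30 lower in lung, the highest probe set of each gene gave 18 higher, equal medians 17, quantile normalization 21 and a fold of 1.5 gave 17. A fold of 4 gave 5 higher and 18 lower, and at least 2 probe sets in 1 direction gave 0 higher and 6 lower. The share of higher genes, 25.0 percent as deposited, was 42.9 with the highest probe set, 41.5 with equal medians, 50.0 with quantile normalization and 0 percent with at least 2 probe sets in 1 direction. The 39 genes with 1 probe set fail that rule by construction. The median difference over genes, -1.08 as deposited, was -0.37 with the highest probe set, -0.68 with equal medians, -0.075 with quantile normalization and -0.56 with lung levels raised to the lowest cardiac one. Without _s_at and _x_at probe sets the difference of Fbxw11 turned to -0.11, and with the highest probe set that of Fbxw8 turned to 0.52. Why was not tested beyond what each setting does by construction. Over 35 named genes, 245 values were computed under the alternatives. Of these, 186 kept the call of the gene and stayed within 1.5-fold of its difference. Many of the 186 were fixed by construction. For a named gene with 1 probe set, the median, the highest probe set and the removal of _s_at and _x_at change nothing. The linear intensities repeat the sheet levels for all but 1 probe set, and 34 of the 35 genes stayed there. With quantile normalization 17 stayed and 18 did not. The 186 is therefore no measure of how firm the differences are. In 13 values of 7 genes the sign was the other one: besides the 2 of Fbxw11 and Fbxw8, these were values of Cul4a, Fbxl20, Fbxo28, Fbxo30 and Fbxo42, which differed by less than 2-fold as deposited. The scalings of probe set agreement, the alternatives for the rank correlation and the removal of the Fbxl20 probe set were chosen after seeing the data. No background signal was used here, so low levels cannot be told from background.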
